A study of Danio rerio with 4 samples.

Results

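The genes described here are 10 zebrafish genes of the testis soma and of male sex determination: the secreted factors amh, gsdf, inha, igf3 and insl3, and the transcription factor genes dmrt1, sox9a, wt1a, wt1b and gata4. They were found by matching the RefSeq transcript named for each array probe to the gene symbols, and all 10 were among the 24334 genes tested. RNA of testes from zebrafish aged 4 months was measured on 1-colour arrays. The exposed fish had spent 6 weeks at 20 µg/L of microcystin-LR (MCLR), which cyanobacteria make and which blocks the serine/threonine phosphatases PP1 and PP2A, and the control fish were kept at 0 µg/L. Each group had 2 arrays. The strain and the number of fish behind each array are not given in the sources used here, and no label says that the replicates came from separate pools of fish, so the p-values measure only the spread between these arrays.

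In fish, Sertoli cells nurse the germ cells and Leydig cells make androgens, and both send protein signals to the spermatogonia. Amh, Gsdf and inhibin belong to the TGF-beta family, most of whose ligands act through paired serine/threonine kinase receptors and Smad proteins. Igf3 is an insulin-like growth factor known from fish gonads, where follicle-stimulating hormone raises it and it drives spermatogonia to divide and differentiate, while Insl3 is a relaxin-like peptide of Leydig cells. Dmrt1, the Sox9 and Wt1 proteins and Gata4 are nuclear factors that set up or maintain the testis soma.

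The 10 genes carried 20 probes, 5 genes having 1 probe each and the other 5 having several. On 19 of the 20 probes the signal stood well above background on all 4 arrays, and the exception was a wt1a probe that missed this mark on control replicate 1. Levels below are log2 values of the processed signal relative to the 75th percentile of the same array, so that 0 is the 75th percentile and 1 unit is a 2-fold step. For each gene the probe brightest on average was used, and levels of different genes are not set against each other, since probes differ in brightness. All 4 arrays lay on 1 slide, MCLR at positions 1 and 2 and control at 3 and 4, so slide position and exposure cannot be told apart. Signal well above background was found for 81.9% to 88.2% of the non-control spots, 0 spots were saturated, and the 75th percentile was 159.9 to 262.6 times the median negative control.

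The control arrays differed from each other in genes of other tissues. The summed signal of 12 pancreas genes, in multiples of the 75th percentile, was 12.1 on control replicate 1 and 186 on control replicate 2, against 10.9 and 12.3 on the MCLR arrays. The sum of 12 neuron and glia genes was 70.4 on control replicate 1 and 24.7 on control replicate 2, against 30.1 and 22.3 in exposed testes. The summed signal of 7 Sertoli cell markers, members excluded, was 42.2 and 47.9 in control testes and 52.7 and 45.9 in exposed testes. That of 9 Leydig cell markers was 24.6 and 46.3 in control testes and 31.9 and 38.3 in exposed testes, and that of 10 germ cell markers 286 and 310 against 281 and 294. All 26 of these testis markers stood well above background on every array, and control replicate 1 was the lowest array for the Sertoli and Leydig sums. By the median level of the markers that array was also lowest for Leydig cells (1.03) but highest for Sertoli cells (2.19). The part of such differences in the results below was not tested. In whole testis, fewer cells of a type and less RNA per cell cannot be told apart.

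**Figure D1:**
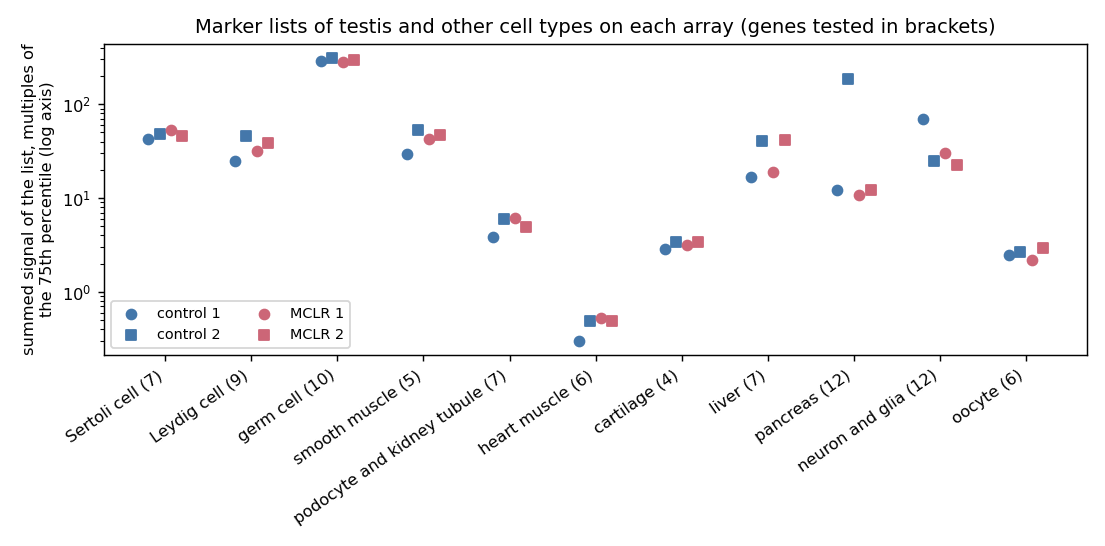
The summed processed signal of each marker list (multiples of the array's 75th percentile, log axis) is plotted for control (blue) and MCLR (red) arrays, circles for replicate 1 and squares for replicate 2. The pancreas sum stands out on control replicate 2 (186), the neuron and glia sum is highest on control replicate 1 (70.4), and the germ cell sums lie between 281 and 310 on all 4 arrays.

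The comparison of MCLR with control asks whether the toxin alters these testis signals and determinants. None of the 10 genes passed the threshold of an adjusted p of 0.05 with limma, adjusted over all genes, where 0.0% of the 24334 genes passed. The smallest adjusted p among the 10 was 0.508, for wt1a. At an unadjusted p under 0.05 there was 1 gene, wt1a, higher in MCLR, which is close to the 9.21% of all genes past that mark. The 2 arrays of one group lay above both arrays of the other in 4 of the 10 genes (wt1a, wt1b and gata4 higher and inha lower in MCLR), where 34.4% of all genes did so. By sign alone 6 of 10 were higher in MCLR, against 61.4% of all genes, and their median log2 fold change was 0.03, against 0.08 over all genes. With median scaling the count by sign turned to 4 higher and 6 lower, dmrt1 and sox9a changing sign. Among the 5 ligand genes, gsdf was higher by sign and 4 were lower (median -0.20). All 5 transcription factor genes were higher by sign (median 0.26), or 3 of 5 with median scaling.

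The 95% interval of the log2 fold change lay within a 2-fold difference either way for amh, inha, dmrt1, sox9a and gata4, that is 5 of 10 genes, against 55.9% of all genes. For igf3 and insl3 the interval reached a 2-fold lower level, and for gsdf, wt1a and wt1b a 2-fold higher one. In 8 of the 10 genes the gap between replicate arrays of a group was larger than the difference between the group means, the exceptions being wt1a and gata4.

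**Figure D2:**
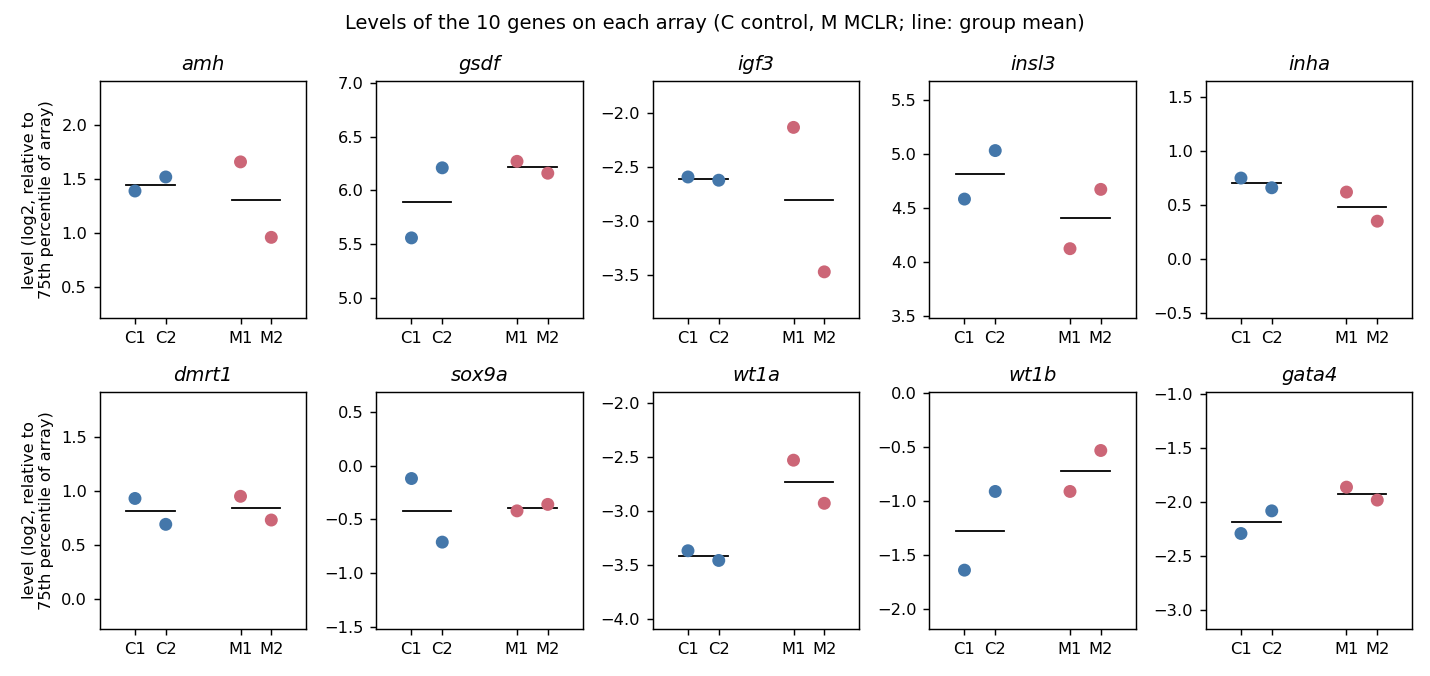
Each panel shows 1 gene with its level on the 4 arrays (log2, relative to the array's 75th percentile), control in blue and MCLR in red, and a line at each group mean. All panels span the same number of log2 units; the 2 MCLR arrays lie far apart for igf3 (-2.13 and -3.47) and the 2 control arrays for wt1b (-1.64 and -0.91).

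Among the Sertoli cell ligands, amh, anti-Müllerian hormone, which in zebrafish holds back germ cell differentiation, had levels of 1.39 and 1.52 in control testes and 1.66 and 0.96 in exposed testes. The processed signals behind them were 1030 and 889 scanner units in control testes and 951 and 774 in exposed testes. The MCLR arrays were the highest and the lowest of the 4, so the groups overlapped. The log2 fold change, MCLR over control, was -0.14 ± 0.31 (SE, with n = 2 arrays per group; 95% interval -0.93 to 0.64), with an adjusted p of 0.999 (limma). It was 0.21 without MCLR replicate 2 and -0.49 without MCLR replicate 1.

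The fish gonadal factor gsdf, a TGF-beta family ligand of the cells next to germ cells, had levels of 5.56 and 6.21 in control testes and 6.27 and 6.16 in exposed testes. Its processed signals were 18572, 22960, 23251 and 28536 in the same order. Control replicate 1 stood below the other 3 arrays, which lay close together. MCLR minus control came to 0.33 ± 0.30 (interval -0.43 to 1.09, adjusted p = 0.965, limma), and without control replicate 1 it was 0.01. Control replicate 1 was also the array with the lowest Sertoli and Leydig sums. The median level of the 7 Sertoli markers was highest there, however, at 2.19 against 1.86 to 2.12 on the other arrays. Of these markers 4 were lowest and 3 highest on that array, and their part in the gsdf value was not tested.

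The inhibin alpha subunit gene inha, whose product joins an activin beta subunit to form inhibin, gave 0.75 and 0.66 in control testes and 0.62 and 0.35 in exposed testes. Both MCLR arrays lay below both controls, MCLR replicate 1 by a small step. The difference of the means was -0.22 ± 0.24 (interval -0.83 to 0.39, adjusted p = 0.999, limma). Over the 13 alternatives it ran from -0.35 to -0.09. With 1 probe, the changed filters, the probe mean, the replicate block and the trended prior could only repeat -0.22. Those settings are thus no support for the direction of inha. Lower levels without overlap were found in 9.08% of all genes.

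The growth factor gene igf3 had levels of -2.59 and -2.62 in control testes and -2.13 and -3.47 in exposed testes, with signals of 65.1, 50.4, 68.7 and 35.8. The controls differed by 0.03, and the MCLR arrays, one above and one below them, by 1.34. The median gap between the MCLR arrays was 0.29 over all genes. On the log2 scale MCLR minus control was -0.20 ± 0.46 (interval -1.36 to 0.97, adjusted p = 0.999, limma), the widest interval of the 10. It was 0.48 without MCLR replicate 2 and -0.87 without MCLR replicate 1, where the adjusted p was 0.864 (0.864 to 1.0 over all alternatives). The receptor gene for follicle-stimulating hormone, fshr, had levels of 0.21 and 1.70 in control testes and 1.91 and 1.49 in exposed testes. Its groups overlapped, with a log2 fold change of 0.75 ± 0.52 (adjusted p = 0.879, limma). Of the 7 Sertoli markers, fshr among them, 3 were higher and 4 lower by sign, with a median of -0.03.

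Leydig cell insl3, which in zebrafish promotes the differentiating spermatogonia, was measured by 3 probes for the same transcript. The chosen probe gave levels of 4.58 and 5.03 in control testes and 4.12 and 4.67 in exposed testes, with signals of 9436, 10148, 5244 and 10152. MCLR replicate 1 was the lowest array on all 3 probes and control replicate 2 the highest, while MCLR replicate 2 lay between the controls on the chosen probe. This probe gave a log2 fold change of -0.41 ± 0.31 (interval -1.19 to 0.37, adjusted p = 0.915, limma).

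A second insl3 probe (A_15_P603812) read 4.26 and 4.89 in control testes and 3.28 and 4.06 in exposed testes, without overlap. With every probe fitted on its own its log2 fold change was -0.90 ± 0.40, with an unadjusted p of 0.0702 and an adjusted p of 0.512 (limma). The last probe, A_15_P631696, gave -0.44 ± 0.41. All 3 probes were thus lower by sign, and the gene's value ran from -0.69 to -0.13 when single arrays were left out. The steroid enzyme gene cyp17a1 of the same cells had levels of 3.06 and 3.94 in control testes and 2.69 and 3.35 in exposed testes, and star had 1.69 and 2.59 against 2.40 and 2.78. Of the 9 Leydig markers 4 were higher and 5 lower by sign, with a median of -0.06.

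**Figure D3:**
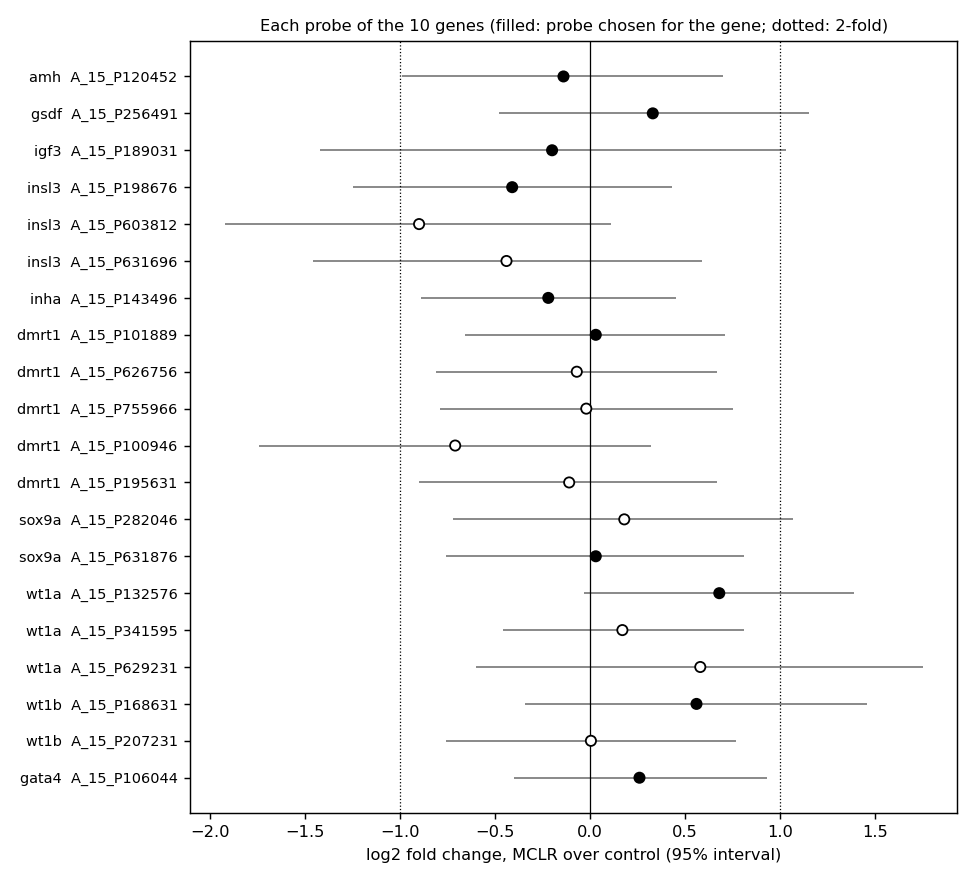
The log2 fold change of MCLR over control is plotted for each of the 20 probes with its 95% interval from the fit of all probes; filled points are the probes chosen for the genes and dotted lines mark 2-fold. The 3 insl3 probes lie at -0.41, -0.90 and -0.44, 1 of 5 dmrt1 probes lies apart at -0.71, and the 20 intervals all include 0.

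Among the transcription factors, dmrt1, the DM-domain gene of male development that is active in Sertoli and germ cells, was represented by 5 probes for 2 transcripts. The chosen probe had levels of 0.93 and 0.69 in control testes and 0.95 and 0.73 in exposed testes, so that the groups overlapped almost fully. Its log2 fold change was 0.03 ± 0.25 (interval -0.60 to 0.65, adjusted p = 0.999, limma), which turned to -0.07 with median scaling and to -0.18 with the mean of the probes. The other 2 probes for that transcript, NM_205628, gave -0.07 and -0.02. Of the probes for transcript NM_205761, one gave -0.11. The other, A_15_P100946, gave -0.71 ± 0.41 (unadjusted p = 0.14, adjusted p = 0.693, every probe fitted, limma), with levels of -0.84 and 0.01 in control testes and -0.82 and -1.42 in exposed testes. On that probe control replicate 2 stood above the other 3 arrays, and control replicate 1 matched MCLR replicate 1.

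The HMG-box gene sox9a, expressed in Sertoli cells of the zebrafish testis, had levels of -0.12 and -0.71 in control testes and -0.42 and -0.36 in exposed testes. Both MCLR arrays lay between the controls. The means differed by 0.03 ± 0.29 (interval -0.70 to 0.76, adjusted p = 0.999, limma), and -0.07 with median scaling. A dimmer probe gave 0.18 ± 0.35. The values without control replicate 2 and without control replicate 1 were -0.27 and 0.32.

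Of the paralogous zinc finger genes wt1a and wt1b, copies of the Wilms tumour gene that are active in gonadal somatic cells and kidney podocytes, wt1a had the smallest p of the 10 genes. Its chosen probe read -3.37 and -3.46 in control testes and -2.53 and -2.93 in exposed testes. The processed signals were low, at 37.9 and 28.2 against 52.0 and 52.1, and both MCLR arrays lay above both controls. The log2 fold change was 0.68 ± 0.26 (interval 0.03 to 1.33), 1.61-fold higher, with an unadjusted p of 0.0428 and an adjusted p of 0.508 (limma).

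The other wt1a probes gave smaller or less certain values. Probe A_15_P341595, of like brightness, read -3.31 and -3.33 in control testes and -3.10 and -3.19 in exposed testes, a log2 fold change of 0.17 ± 0.25. The dimmest probe gave 0.58 ± 0.46 with a control gap of 1.21. It passed the brightness filter through the MCLR group alone, so its value, which also enters the mean of the probes, is no support for a difference. The value of wt1a was 0.25 with normexp background correction and quantile normalization combined (0.53 with quantile normalization alone), and with the mean of its probes it was 0.48. With these 3 settings, median scaling, the deposited values, no filter or the trended robust prior, its unadjusted p was not under 0.05 (limma). In the fit of all probes the chosen probe had an unadjusted p of 0.0563 (limma). The p stayed under 0.05 with the filter on all arrays, every kept probe or the replicate block, which reuse the same levels. Higher levels at an unadjusted p under 0.05 were found in 8.68% of all genes.

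The paralogue wt1b had levels of -1.64 and -0.91 in control testes and -0.91 and -0.53 in exposed testes, control replicate 2 and MCLR replicate 1 being equal to 2 decimals. MCLR minus control was 0.56 ± 0.34 (interval -0.28 to 1.40, adjusted p = 0.817, limma). It rested on control replicate 1, being 0.20 without that array and 0.92 without control replicate 2 (adjusted p = 0.301, the range over all alternatives being 0.301 to 1.0). The second wt1b probe, with levels of -0.85 and -1.28 against -1.22 and -0.90, showed overlapping groups and a log2 fold change of 0.0044 ± 0.30. The sum of 7 podocyte and kidney tubule markers, all above background on every array, was 3.85 and 5.94 in control testes and 6.07 and 4.87 in exposed testes. The brightest marker gave much of this sum. The sum was lowest on control replicate 1, where 4 of the 7 markers were lowest and 1 was highest. The chosen wt1b probe was also lowest there, but the second wt1b probe was highest there. The part of the kidney genes in the wt1b value was not tested.

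The zinc finger gene gata4, active in somatic cells of the gonad and also in heart and liver, had levels of -2.29 and -2.08 in control testes and -1.86 and -1.98 in exposed testes. The groups did not overlap, as in the 25.3% of all genes that were higher without overlap. For gata4 the log2 fold change was 0.26 ± 0.24 (interval -0.34 to 0.87, adjusted p = 0.967, limma) and ran from 0.09 to 0.37 over all alternatives. The sum of 6 heart muscle markers was 0.30 and 0.493 in control testes and 0.526 and 0.49 in exposed testes. All 6 were higher in MCLR by sign, 5 without overlap, and 3 of the 6 were above background on all arrays. The others, myh6, myh7 and nppa, passed the brightness filter through the MCLR group alone. Their place in these counts is therefore no support for a difference. The part of the heart genes in the gata4 value was not tested. The sum of 7 liver markers was 16.6 and 40.7 in control testes and 18.8 and 41.4 in exposed testes, and its part was not tested.

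The MCLR arrays differed from each other in the ligands. Replicate 1 was higher than replicate 2 for igf3 (by 1.34), amh (0.70), inha (0.26) and gsdf (0.11), and lower for insl3 (0.55). The gaps of inha and gsdf were below the median of all genes, 0.29. The Sertoli marker sum was likewise higher on replicate 1 (52.7 against 45.9) and the Leydig sum lower (31.9 against 38.3), and the part of such differences was not tested. In 6 of the 10 genes the highest level was on MCLR replicate 1. Over all genes 7970 of 24334 were highest on that array.

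**Figure D4:**
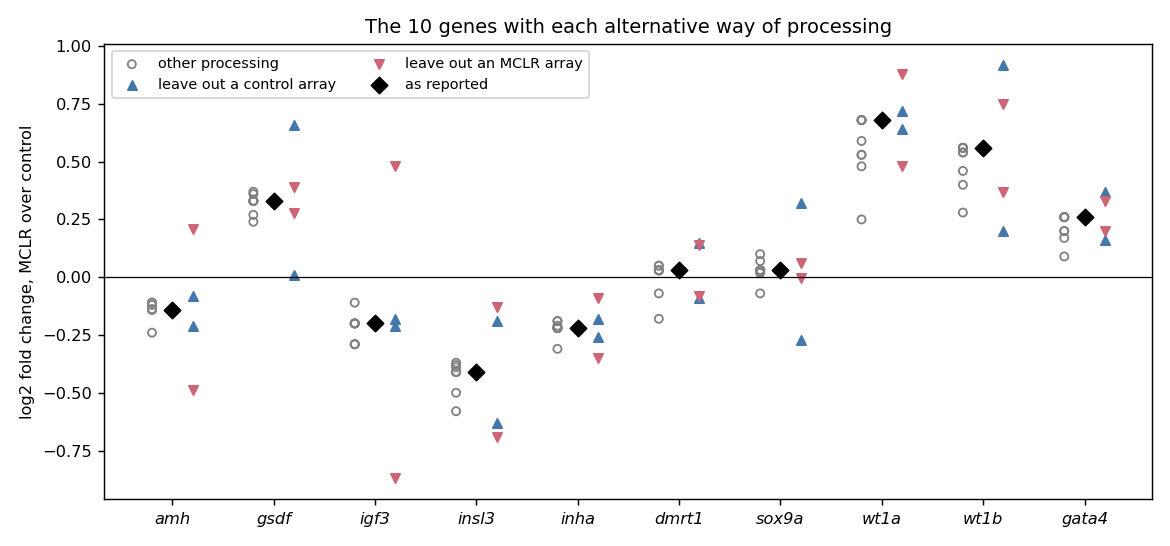
For each gene the reported log2 fold change (black diamond) is set beside the values with another processing (grey circles), without a control array (blue) and without an MCLR array (red). The signs of amh and igf3 turn without MCLR replicate 2 (0.21 and 0.48), those of dmrt1 and sox9a lie around 0, and the other 6 genes keep their sign in every setting shown. Settings that change only the filter, the block or the prior leave these values unchanged.

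Genes of the pathways these proteins belong to were described from 6 lists. In none of the lists did a gene pass the adjusted threshold (limma, over all genes), and the percentage of all genes past an unadjusted p under 0.05 was 8.68% higher and 0.53% lower. Of 27 other TGF-beta family ligands and binding proteins, 25 had probes and 22 were bright enough for testing. By sign 14 were higher and 8 lower, with a median of 0.18 against 0.08 over all genes, and 5 higher and 1 lower had an unadjusted p under 0.05. The lower gene was fstb, a follistatin, which binds activin. Its levels were 0.47 and 0.74 in control testes and -0.58 and 0.03 in exposed testes, without overlap. Its log2 fold change was -0.88 ± 0.30 (unadjusted p = 0.0301, adjusted p = 0.429, limma), and its second probe gave -1.0.

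Among the higher genes of that list, the BMP antagonist genes nog3 and chrd had log2 fold changes of 1.23 ± 0.25 (adjusted p = 0.18) and 1.03 ± 0.34 (adjusted p = 0.411). Both were dim. Quantile normalization alone gave 0.87 and 0.45, and its combination with the background correction 0.21 and 0.06. Of the ligand genes, bmp2a gave 0.71 ± 0.26 (adjusted p = 0.465, limma) and tgfb1a 0.84 ± 0.34 (adjusted p = 0.543, limma). Like nog3, both were above background on all arrays. The bmp2a probe was dim too, with signals of 22.4 and 23.0 in control testes and 31.1 and 44.0 in exposed testes. The ligand gene bmp6 did not stand well above background on either control array. In the reported setting it was at least 1.99-fold higher in MCLR (adjusted p = 0.235, limma). This bound is the mean MCLR level over the lowest detectable control signal. With quantile normalization and the background correction combined, the log2 fold change of bmp6 was 0.15, so the bound holds for the reported setting only. Like chrd, bmp6 passed the brightness filter through the MCLR group alone. The p-values of chrd and bmp6 and the ratio of bmp6 are therefore no support for a difference. Nor are the places of both genes in the list's counts and median, the count of 5 included. All 26 measured genes of the 34 TGF-beta receptors, Smads and Id targets were above background on all arrays. Their median was -0.03, with 10 higher and 16 lower, and 0 had an unadjusted p under 0.05.

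In that list the type II receptor gene bmpr2a, whose product takes part in Amh signalling in zebrafish, gave -0.22 ± 0.46, with levels of -1.81, -1.10, -1.13 and -2.23 on the 2 control and 2 MCLR arrays. Its paralogue bmpr2b gave -0.25 ± 0.24 and the type I receptor gene bmpr1ba -0.03 ± 0.33 (up to 0.44 on other probes). The activin receptor-like kinase gene acvr1l gave -0.35 ± 0.24, and another of its probes 0.21. The BMP target id1 had 1.66 and 1.39 in control testes and 2.08 and 2.16 in exposed testes. Its log2 fold change was 0.60 ± 0.25 (unadjusted p = 0.055, adjusted p = 0.56, limma). Another id1 probe gave 0.27, and the mean of the probes 0.43. The values of smad4a (0.56 ± 0.25) and smad6b (0.42 ± 0.26) were 0.12 and 0.17 after the combined correction. Without control replicates 1 and 2 in turn, smad6b was 0.22 and 0.62.

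Of 21 genes of insulin-like growth factor signalling, 19 had probes and 17 were tested, 14 of them above background on all arrays. By sign 12 were higher and 5 lower (median 0.17, or 0.07 to 0.39 when single arrays were left out), with an unadjusted p under 0.05 for 4 higher and 1 lower. The lower one, igfbp2a, codes for a binding protein that holds these growth factors outside cells. It had levels of 0.03 and 0.47 in control testes and -0.65 and -0.38 in exposed testes, a log2 fold change of -0.77 ± 0.28 (adjusted p = 0.465, limma), but its probes ran as high as 0.77. The brightest of the 4 higher genes, igfbp5b, had levels of 3.09 and 3.46 in control testes and 4.21 and 3.83 in exposed testes, without overlap (0.74 ± 0.28, unadjusted p = 0.0414, adjusted p = 0.501, limma). The other 3 were dim and passed the brightness filter through the MCLR group alone, so that their p-values are no support for a difference. The same holds for their places among the 12 and the 4 higher genes and in the median. For igfbp2b, not well above background in control testes, the ratio defined for bmp6 was 2.0 in the reported setting (adjusted p = 0.132, limma). Like the p-value, this ratio is no support for a difference. After the combined correction the log2 fold change of igfbp2b was 0.1, so the ratio holds for the reported setting only. The values of igfbp5a (1.39 ± 0.36) and igfbp6b (0.90 ± 0.23) were 0.09 and 0.11 after that correction. The receptor gene igf1ra gave 0.86 ± 0.43 (0.08 after that correction), and its paralogue igf1rb was on the array but not bright enough for testing.

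**Figure D5:**
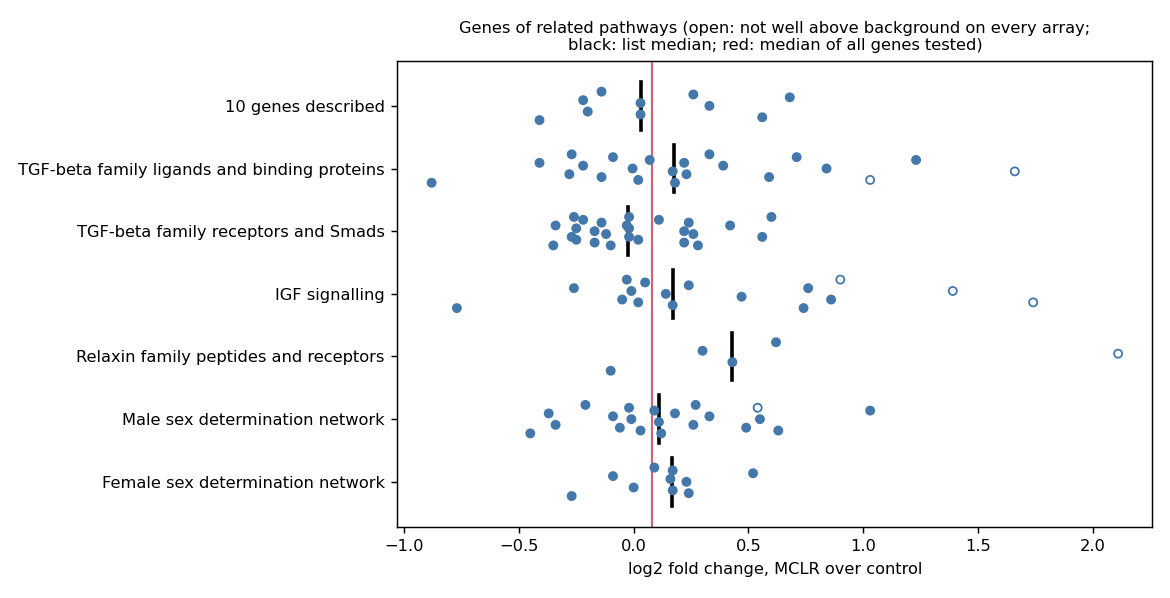
Log2 fold changes of MCLR over control are plotted for the 10 genes and for the tested genes of 6 pathway lists, with a black bar at each list median and a red line at the median of all genes (0.08). Open points, which were not well above background on every array, include the 4 highest values, and fstb (-0.88) and igfbp2a (-0.77) lie farthest left.

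The relaxin family list held 16 genes, of which 6 had probes and 5 were tested. No probe matched rxfp2a or rxfp2b, the Insl3 receptor genes. The peptide gene insl5b was not well above background in control testes. In the reported setting its mean MCLR level was 1.37 times the lowest detectable control signal (adjusted p of the log2 fold change 0.177, limma). This p was 0.0413 without control replicate 2 and 0.999 in the deposited table. It rests on control signals at background, and the gene passed the brightness filter through the MCLR group alone, so it is no support for a difference. For insl5b the log2 fold change was 0.11 after the combined correction and 0.33 in the deposited table. The ratio of 1.37 thus holds for the reported setting only and is likewise no support for a difference. The neuropeptide genes rln3a and rln3b gave 0.62 ± 0.33 and 0.30 ± 0.24, and insl5a 0.43 ± 0.33. Without control replicates 1 and 2 in turn, rln3a was 0.99 and 0.25 and insl5a 0.08 and 0.77.

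Of 27 further genes of the male sex determination network, 25 had probes and 21 were tested, with 13 higher and 8 lower by sign (median 0.11, or -0.01 to 0.32 when single arrays were left out) and 0 at an unadjusted p under 0.05. Of the 21, 20 were above background on all arrays. The remaining gene, higher by sign, passed the brightness filter through the MCLR group alone, so its place in the counts and the median is no support. The largest difference was that of nr5a5, a nuclear receptor gene of the steroidogenic factor family, with levels of -0.74 and 0.57 in control testes and 1.11 and 0.79 in exposed testes. Its log2 fold change was 1.03 ± 0.47 (adjusted p = 0.638, limma), or 0.38 if control replicate 1 was left out and 1.69 if control replicate 2 was. Its 4 probes ran from 0.89 to 3.06, and their mean gave 2.04 (adjusted p = 0.196). The family member nr5a1a, a steroidogenic factor 1 gene, gave -0.06 ± 0.27, with probes from -0.08 to 0.45. For nr0b1, the Dax1 gene that represses steroidogenic factor 1 in mammals, it was 0.55 ± 0.28 (0.06 after the combined correction). The homeobox genes six1b and emx2 gave 0.63 ± 0.34 and -0.45 ± 0.27, the latter with 0.59 on another probe. Without control replicates 1 and 2 in turn, six1b was 0.29 and 0.97. The second sox9 gene, sox9b, gave -0.09 ± 0.26, or -0.41 with quantile normalization. The signal gene dhh was on the array but not bright enough for testing.

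In the female network, all 10 measured genes of 11 were above background on all arrays, with 7 higher and 3 lower by sign, a median of 0.17, and 0 at an unadjusted p under 0.05. The ovarian transcription factor gene foxl2a gave 0.16 ± 0.31, with probes from -1.06 to 0.39. The gonadal aromatase gene cyp19a1a gave -0.09 ± 0.23, lower without overlap (-3.78 and -3.91 against -3.95 and -3.93), but 0.31 on another probe. With quantile normalization cyp19a1a was -0.39. The estrogen receptor gene esr2a had levels of -0.84 and -0.54 in control testes and -0.28 and -0.05 in exposed testes, without overlap, and a log2 fold change of 0.52 ± 0.26 (adjusted p = 0.703, limma). The Wnt pathway genes wnt4, rspo1 and ctnnb1 gave 0.23 ± 0.28, 0.24 ± 0.39 and -0.27 ± 0.35. A second wnt4 probe gave 1.01, and the mean of its probes 0.62.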

How the data were processed

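Testis RNA, labelled with Cy3, was measured on 4 Agilent arrays, 2 per group. Per the file headers, scanner files were made with Feature Extraction 11.0.1.1, and the processed signal is an intensity from which background and spatial trend were removed array by array. The deposited table of log2 values, whose method is not given in the sources used here, served as an alternative. Its columns had a median of 5.91 each and correlated at 0.992 to 0.995 with the log2 processed signals. For the genes described here its log2 fold changes lay close to those of quantile normalization (wt1a 0.53 and igf3 -0.29 in both). They differed for the dim gene insl5b (0.33 against 1.06 with quantile normalization). The deposited table is therefore not a check separate from quantile normalization. Whether it was made by quantile normalization was not tested, and how it was centred is not stated.

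Each log2 signal was taken relative to the 75th percentile of its array (control spots left out). Spots of 1 probe were averaged, without the 60 probes that carried outlier marks. Probes were named by RefSeq transcript (gene table of assembly GRCz12tu; 25978 of 43603 probes, 59.6%), so probes with other identifiers were not assigned to these genes. Kept were probes marked as well above background on both arrays of a group, and the brightest probe stood for a gene, which left 24334 genes. MCLR and control were compared with limma 3.58.1 in R 4.3.3 (group only, eBayes, two-sided, Benjamini-Hochberg over all genes). Values of single probes come from the same fit over all probes. With 2 residual and 3.52 prior degrees of freedom, an unadjusted p of 0.05 took a difference of 0.69 (log2) at the median standard error, 0.28. The ratio for a gene not above background in a group used, on each array, the higher of 2 signals. These were its own signal and the lowest signal well above background. The ratio leaves out the error of the other group's mean, so it is no lower bound. The number of arrays limits the precision.

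The fit was tested on simulated data. The 10 genes, the 6 pathway lists and the 11 marker lists were chosen with earlier results of these data known. Named were the 10 genes, up to 4 genes with the smallest p in each pathway list, and 13 receptor and network genes in any case. The genes fshr, cldn11a, cyp17a1, star, igfbp5b, bmp2a, tgfb1a, gdf9, bmp15 and zp3b were named after their values were seen. No genes of like pattern were sought, since 4 arrays are too few. Alternatives were quantile normalization, normexp background correction (offset 50, median spot signal and local background) with quantile normalization, median scaling, the deposited values, no filter or a filter on all arrays, the mean of the probes, every probe, a replicate block, limma's trended robust prior, and each array left out. Python 3.11.15 read the files and drew the plots.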

Additional observations from a re-analysis of the deposited data

How the results depend on the processing

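None of the 10 genes passed the adjusted threshold in any alternative (limma, smallest adjusted p 0.301), which with 2 arrays per group is no sign of stability. Of 140 values of these genes over the alternatives, 127 kept the reported direction and 13 reversed, and 6 genes had no reversal. The changed filters, the replicate block and the trended robust prior left the value of each of these genes as reported. They reuse the same probes and levels, so their share of the 127 is no support for a direction. The dimmest wt1a probe passed the filter through the MCLR group alone, so its value among the 127 is no support either. The deposited values of these genes lay close to those with quantile normalization, so they are no separate check either. With median scaling dmrt1 and sox9a were both at -0.07. The mean of the probes gave dmrt1 -0.18, and its single probes gave -0.71, -0.11, -0.07 and -0.02. When single arrays were left out, amh ran from -0.49 to 0.21, igf3 from -0.87 to 0.48, dmrt1 from -0.09 to 0.15 and sox9a from -0.27 to 0.32. The cause was not tested for these reversals. A lone remaining array took its spread from the other group.

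Over all genes the reported 0 adjusted calls became 215 with median scaling, 2 with the trended and robust prior, and 0 to 327 when single arrays were left out, 214 without control replicate 1 and 327 without control replicate 2. Counts at an unadjusted p under 0.05 were 2113 higher and 129 lower, which became 948 and 456 with quantile normalization, 413 and 212 with normexp background correction and quantile normalization combined (the combined correction), and 2561 and 887 without control replicate 2. With the replicate number as a replicate block the values were the same and wt1a had an unadjusted p of 0.0473 and an adjusted p of 0.498. This block changed no call, and the settings in which the p of wt1a was not under 0.05 are given with that gene. The labels do not say that the numbers pair the arrays, and deviations of same-numbered arrays correlated at 0.188 over genes.

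Among the pathway lists, the median of TGF-beta ligands and binding proteins (0.18) was 0.07 with quantile normalization and in the deposited table, 0.05 with the combined correction, 0.08 with median scaling, and -0.09 to 0.27 when single arrays were left out. That of the relaxin family (0.43) was 0.11 with the combined correction, 0.33 with median scaling and in the deposited table, and 0.17 to 0.50 when single arrays were left out, with 0 to 1 genes called. The female network ran from -0.07 to 0.28, the male network (0.11) from -0.01 to 0.32, IGF signalling (0.17) from 0.07 to 0.39, and receptors and Smads (-0.03) from -0.08 to 0.04. Of 32 named pathway genes, 10 reversed in some setting. The mean of the probes gave bmpr1ba 0.26, emx2 0.07, nr5a1a 0.17 and cyp19a1a 0.11, and bmpr1ba was 0.02 with quantile normalization, the combined correction and the deposited values. For bmpr1ba and for the median of TGF-beta ligands, the deposited values repeated those of quantile normalization and are no separate check. Leaving out single arrays gave bmpr2a -0.77 to 0.33, bmpr1ba -0.35 to 0.29, sox9b -0.27 to 0.09, nr5a1a -0.27 to 0.15, wnt4 -0.04 to 0.49, ctnnb1 -0.71 to 0.17, rspo1 -0.15 to 0.64 and foxl2a -0.12 to 0.45. Dim genes are limited by signal over background, and those that passed the filter through the MCLR group alone are part of the list medians.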

Other observations

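Oocyte factors of the TGF-beta family were also measured in these testes. The growth factor gene gdf9 read -1.49 and -1.67 in control testes and -2.28 and -1.70 in exposed testes, a difference of -0.41 ± 0.29 (adjusted p = 0.89, limma). Its partner bmp15 had -2.57 and -2.32 against -2.84 and -2.58, a difference of -0.27 ± 0.25 (adjusted p = 0.973). Both genes were lower in MCLR without overlap between the groups, as were 9.08% of all genes. The other 4 oocyte genes tested overlapped between the groups, among them the egg coat gene zp3b (0.46 and 0.44 against 0.21 and 0.80). All 6 oocyte genes stood well above background on every array.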
